A study of Homo sapiens with 4 samples.

Results

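Imprinted genes were read in A549 cells, a human lung adenocarcinoma line, in which DCBLD2 was targeted. The 10 genes, PEG10, SGCE, MEST, IGF2, H19, PEG3, CDKN1C, SNRPN, PHLDA2 and GRB10, were chosen by symbol, and all 10 were found among the 57905 genes of the count table. The study made 4 poly(A) RNA libraries, 1 per condition: scramble control (sc), shDCBLD2, empty vector (the vector control) and DCBLD2 overexpression. The study made stable lines by lentivirus, with DCBLD2 hairpins carried on a puromycin vector and the DCBLD2 insert on a blasticidin vector; the backbones of the scramble and the empty vector are not given in the sources used here. The libraries held 19104052 counts in sc, 21537283 in shDCBLD2, 18718562 in the vector control and 16601633 in the remaining library, the library labelled DCBLD2 overexpression. With 1 library per condition, replicate error could not be estimated and p-values are not printed.

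An imprinted gene is transcribed mainly from the copy inherited from the mother or mainly from the copy inherited from the father, according to DNA methylation laid down in the germ line. Many lie in clusters steered by a shared imprinting control region, and many act on fetal and placental growth. Paternally expressed genes of the group, such as IGF2, PEG10, MEST and PEG3, are classed apart from maternally expressed ones, such as H19, CDKN1C and PHLDA2. Tumor lines often keep these genes at levels unlike those of their tissue. Gene counts sum both parental copies, so allelic origin was not measured here.

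The targeted gene was read first. DCBLD2 had 9859 counts in sc and 4259 in shDCBLD2, a log2 ratio of −1.35 (95% interval −1.40 to −1.30). It had 7970 counts in the vector control and 4000 in the library labelled overexpression, a log2 ratio of −0.84 (−0.90 to −0.79). The shDCBLD2 library thus followed its label, and the library labelled overexpression went against its own. Directions drawn from the latter refer to the library, not to raised DCBLD2. Whether the labels of these 2 libraries are exchanged was not tested; if so, every ratio between them would change sign, and the library labelled overexpression would be the control to set against sc. DCBLD2 stood at 504 CPM in sc and 434 in the vector control, a log2 ratio of −0.21 (−0.26 to −0.17). Neither of the 2 libraries was thus above sc. From RNA sequencing of A549 cells with the overexpression or empty vector, the paper reports positive enrichment of signatures of epithelial-mesenchymal transition. On its western blots, cells given the overexpression vector lost E-cadherin and gained Vimentin, and with shDCBLD2 this shift was weaker. These reports were not used here to weigh the labels. The library labelled overexpression also stood apart in its spread: 110 genes had log2 ratios of 3.9 or more against the vector control, and 0 did in the other 2 comparisons described below. It had most genes with more than 3 counts, 17935 against 17458 to 17591, and mitochondrial genes made up 5.14% of its counts, 6.53% in the vector control, 5.54% in sc and 5.09% in shDCBLD2. As for the line, the epithelial keratin KRT8 stood between 4745 and 8547 CPM, a count scaled to library size, in the 4 libraries, while the surfactant genes SFTPC and SFTPB had at most 11 and 6 counts.

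Of the 10 genes, H19 alone passed the threshold in either comparison of a DCBLD2 library with its control. It was higher in the library labelled overexpression and lower in shDCBLD2. With the controls exchanged, 4 of the 10 passed it in the library labelled overexpression, H19, IGF2 and CDKN1C higher and PEG10 lower. Of the 13966 genes past the filter on low counts, 1125 then passed it higher and 1252 lower. In shDCBLD2, 3 of the 10 passed it (PEG10 higher, H19 and CDKN1C lower), beside 10.3% of all genes. A gene was called when its ratio was at least 2-fold, its interval excluded no change and its mean was at least 1 CPM over the 4 libraries. CPM are counts relative to a library total adjusted by the trimmed mean of M values (TMM), and the intervals cover counting error only. The filter on low counts kept 9 of the 10 genes; PEG3 did not pass. Against the vector control, 1 of 9 was called higher and 0 lower, beside 6.39% and 5.29% of the 13966 genes past the filter. In shDCBLD2 against sc, 0 of 9 were called higher and 1 lower, beside 1.17% and 5.65% of all genes. Between the control libraries, empty vector against sc, 0 of 9 were called in either direction, beside 2.21% higher and 1.89% lower. With 9 genes, a count of 1 cannot be set apart from these shares. The median log2 ratio of the 9 genes was 0.098, −0.023 and −0.00060 in the 3 comparisons, and that of all genes −0.044, 0.0081 and −0.0068. The comparison of controls shares the empty vector and sc libraries with the other 2, so the 3 are not independent.

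**Figure D1:**
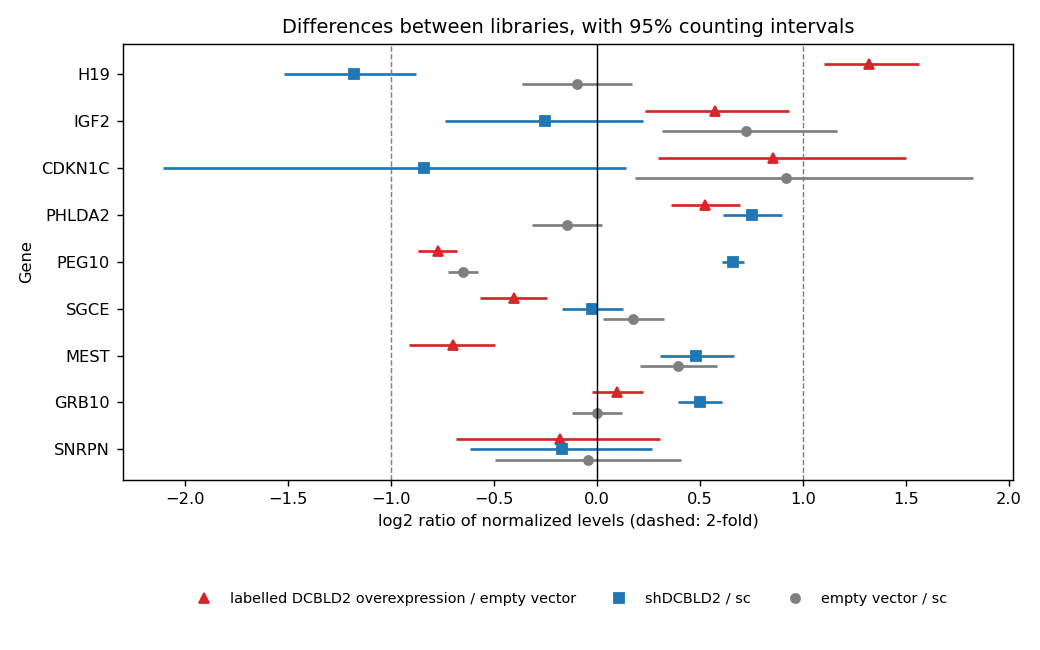
Log2 ratio of normalized levels (x axis) for the 9 imprinted genes past the filter (y axis) in 3 comparisons, 1 library a side; points are ratios, lines 95% counting intervals and dashed lines 2-fold. H19 lies past 2-fold at 1.32 and −1.18 with a control ratio of −0.10, while PEG10 stands at −0.77, 0.66 and −0.65.

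Levels of different genes were compared per length, in the deposited FPKM (counts per kilobase of exon, scaled to the library total). PEG10 and PHLDA2 led in sc, at 33.7 and 33.5 FPKM. SGCE followed at 14.8, GRB10 at 6.02, MEST at 4.88 and H19 at 4.71. SNRPN, at 1.34 FPKM, IGF2, at 0.59, and CDKN1C, at 0.43, were low. The order differed among libraries. PHLDA2 ranked first in the other 3 libraries. H19 had rank 4 in the library labelled overexpression, at 10.8 FPKM, and rank 6 elsewhere. PEG10 had the widest range in CPM after H19 and CDKN1C, and SNRPN and SGCE the narrowest ranges among the 9 genes.

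**Figure D2:**
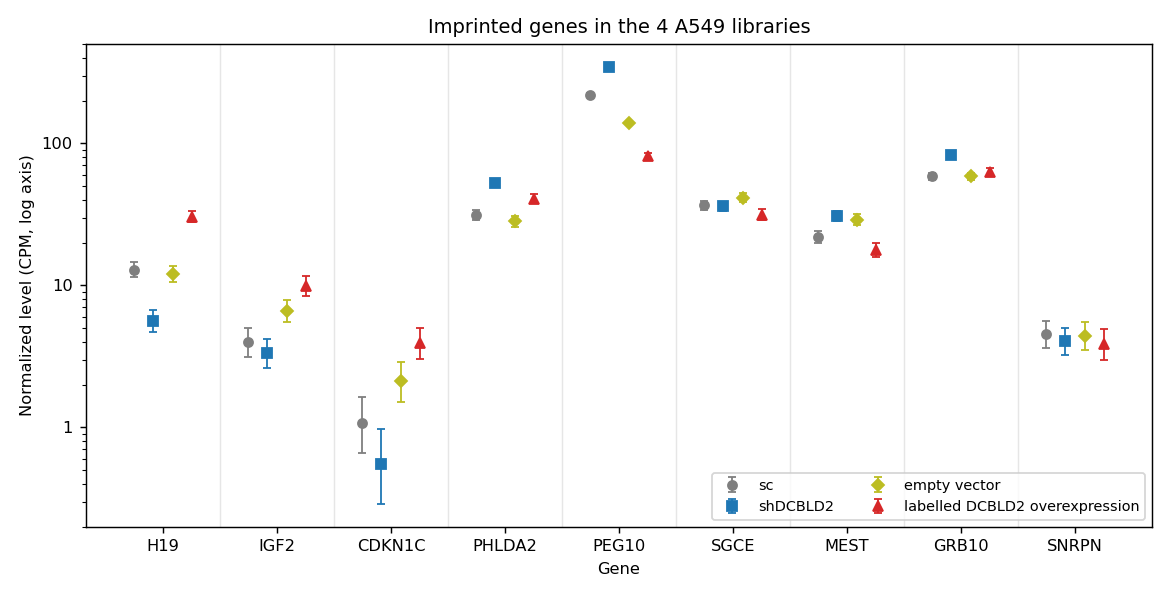
Normalized level in CPM (log axis) of the 9 imprinted genes past the filter in each of the 4 libraries; each point is 1 library and bars are 95% counting intervals. H19 spans 5.66 to 30.4 CPM with sc and empty vector between, PEG10 spans 81.2 to 345 CPM, and the 4 SNRPN intervals overlap. PEG3, with 1 count in sc and 0 elsewhere, is not drawn.

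H19 (ENSG00000130600) is a maternally expressed noncoding RNA next to IGF2 and the host of miR-675. It lay on the minus strand of chromosome 11 from 2016406 to 2022700. These are deposited coordinates, whose human build is not given in the sources used here. It is shown here because it alone passed the threshold. The first line below is the 250 bases before its RefSeq start at chr11:2001267-2001516 on the minus strand of GRCh38.p14, and the next 2 are the mature strands of miR-675, with the seed, bases 2 to 8, in capitals. In GENCODE 29, both strands of miR-675 lie within H19 on its strand, at chr11:1996800-1996822 and chr11:1996768-1996787.
H19 promoter: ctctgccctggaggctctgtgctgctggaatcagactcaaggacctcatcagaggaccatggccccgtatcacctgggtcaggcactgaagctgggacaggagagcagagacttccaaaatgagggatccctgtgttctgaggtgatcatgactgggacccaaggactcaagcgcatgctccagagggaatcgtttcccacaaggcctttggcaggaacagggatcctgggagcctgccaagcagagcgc
hsa-miR-675-5p: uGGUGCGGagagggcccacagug
hsa-miR-675-3p: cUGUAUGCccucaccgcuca
The promoter window holds 4 CpG, against a median of 11 over the 35116 windows of the same kind. Poly(A) libraries of gene counts do not measure mature miRNAs, so miR-675 itself has no value here.

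H19 had 253 counts in sc, 122 in shDCBLD2, 222 in the vector control and 502 in the library labelled overexpression. These were 12.9, 5.66, 12.1 and 30.4 CPM. The control libraries could not be told apart by counting error, and the other 2 lay on either side of them with intervals that did not overlap theirs. H19 was 2.50-fold higher in the library labelled overexpression than in the vector control, a log2 ratio of 1.32 (1.10 to 1.56). In shDCBLD2 it was 2.26-fold lower than in sc, a log2 ratio of −1.18 (−1.52 to −0.88). DCBLD2 itself had a negative ratio in both comparisons, so H19 did not take the same direction as DCBLD2 in both.

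IGF2 (ENSG00000167244, chromosome 11 from 2150342 to 2170833), the paternally expressed growth factor that signals through IGF1R and INSR, lay 127642 bases from H19. It had 78 counts in sc, 72 in shDCBLD2, 122 in the vector control and 164 in the library labelled overexpression. The sc and shDCBLD2 intervals overlapped, and the other 2 libraries lay above them and apart from each other. The log2 ratios were 0.57 (0.23 to 0.93) against the vector control, −0.25 (−0.74 to 0.22) for shDCBLD2 and 0.72 (0.32 to 1.17) between the controls. Against sc, the ratio of the library labelled overexpression was 1.29, past 2-fold. IGF2 thus differed as much between the control libraries as between either DCBLD2 library and its control. INS-IGF2, IGF2-AS and MIR483, which overlap it, had 0 counts in all 4 libraries. How reads in stretches shared by genes were counted is not stated. These 0 counts thus need not mean absence, and IGF2 could be undercounted in the ratios that follow. Per length, the H19 level was 7.98 times that of IGF2 in sc, 4.19 times in shDCBLD2, 4.54 times in the vector control and 7.57 times in the library labelled overexpression.

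CDKN1C (ENSG00000129757, chromosome 11 from 2904443 to 2907111) is a maternally expressed inhibitor of cyclin-dependent kinases and lies in the neighbouring cluster of 11p15. It had 21 counts in sc, 12 in shDCBLD2, 39 in the vector control and 65 in the library labelled overexpression. Its order among libraries was that of IGF2, with the library labelled overexpression apart from the other 3. At this depth the log2 ratios were wide, at 0.86 (0.30 to 1.5), −0.84 (−2.11 to 0.14) and 0.92 (0.18 to 1.82). The first and last of these, against the vector control and between the controls, were of similar size. With the controls exchanged the ratios were 1.77 and −1.76, both past 2-fold.

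PHLDA2 (ENSG00000181649, chromosome 11 from 2949503 to 2950685), a maternally expressed pleckstrin homology protein that restrains placental growth, lay 42392 bases from CDKN1C. It had 612 counts in sc, 1140 in shDCBLD2, 519 in the vector control and 673 in the library labelled overexpression. Both DCBLD2 libraries lay above both controls, and the controls overlapped. Its ratios on the log2 scale were 0.53 (0.36 to 0.70), 0.75 (0.61 to 0.90) and −0.15 (−0.32 to 0.03), all under 2-fold. PHLDA2 and H19 thus had ratios of opposite sign in shDCBLD2, although both are maternally expressed genes of 11p15.

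Other imprinted genes of 11p15 stood between or beside these. KCNQ1, a potassium channel gene, was 2.08-fold higher in the library labelled overexpression, with 133 counts against 70. In shDCBLD2 it was 4.46-fold lower, with 9 counts against 43. Both calls ended at a mean of at least 5 CPM. SLC22A18, a transporter gene, was 2.14-fold lower in shDCBLD2, with 507 counts against 988 in sc, and had a log2 ratio of 0.71 against the vector control. OSBPL5 had ratios of 0.33 and −0.64, and KCNQ1OT1, the antisense RNA inside KCNQ1, 0.20 and −0.16. Whether counting used the strand is not stated, so reads of KCNQ1 and KCNQ1OT1 cannot be told apart. Between the controls none of these 4 was called, and KCNQ1 had the largest ratio of them, at 0.77 (0.23 to 1.38).

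Genes beside H19 and CDKN1C were called too. MRPL23-AS1, 5256 bases from H19, was 6.78-fold lower in shDCBLD2, with 7 counts against 54. It had 61 and 69 counts in the vector control and the library labelled overexpression. At a mean of at least 5 CPM its call ended, as did those of RP11-295K3.1 and AC068580.6 below. IFITM10 was 2.13-fold higher in the library labelled overexpression and 2.84-fold lower in shDCBLD2. DUSP8, a phosphatase of mitogen-activated kinases, and RP11-295K3.1 were 2.93-fold and 2.15-fold higher in the former. AC068580.6 and SLC22A18AS were 2.33-fold and 2.02-fold lower in shDCBLD2, though neither was called against the vector control, nor SLC22A18AS with DESeq2 size factors or a prior count of 5. CD81, on the other side of IGF2, NAP1L4, beside PHLDA2, and TSSC4, the gene before KCNQ1, were called in none of the 3 comparisons. Along 11p15, the 4 genes described above and the 4 other imprinted genes all had ratios above 0 against the vector control. In shDCBLD2, 3 of the former and 4 of the latter had ratios below 0, PHLDA2 being the exception. Of the 14 genes beside them, 10 were above 0 in the first comparison and 8 below 0 in the second. Between the controls 2 of the former, 3 of the latter and 10 of the 14 were above 0, so the count of the 14 was the same there as against the vector control. Of all genes past the filter, 47.1%, 50.9% and 49.2% had ratios above 0 in the 3 comparisons.

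**Figure D3:**
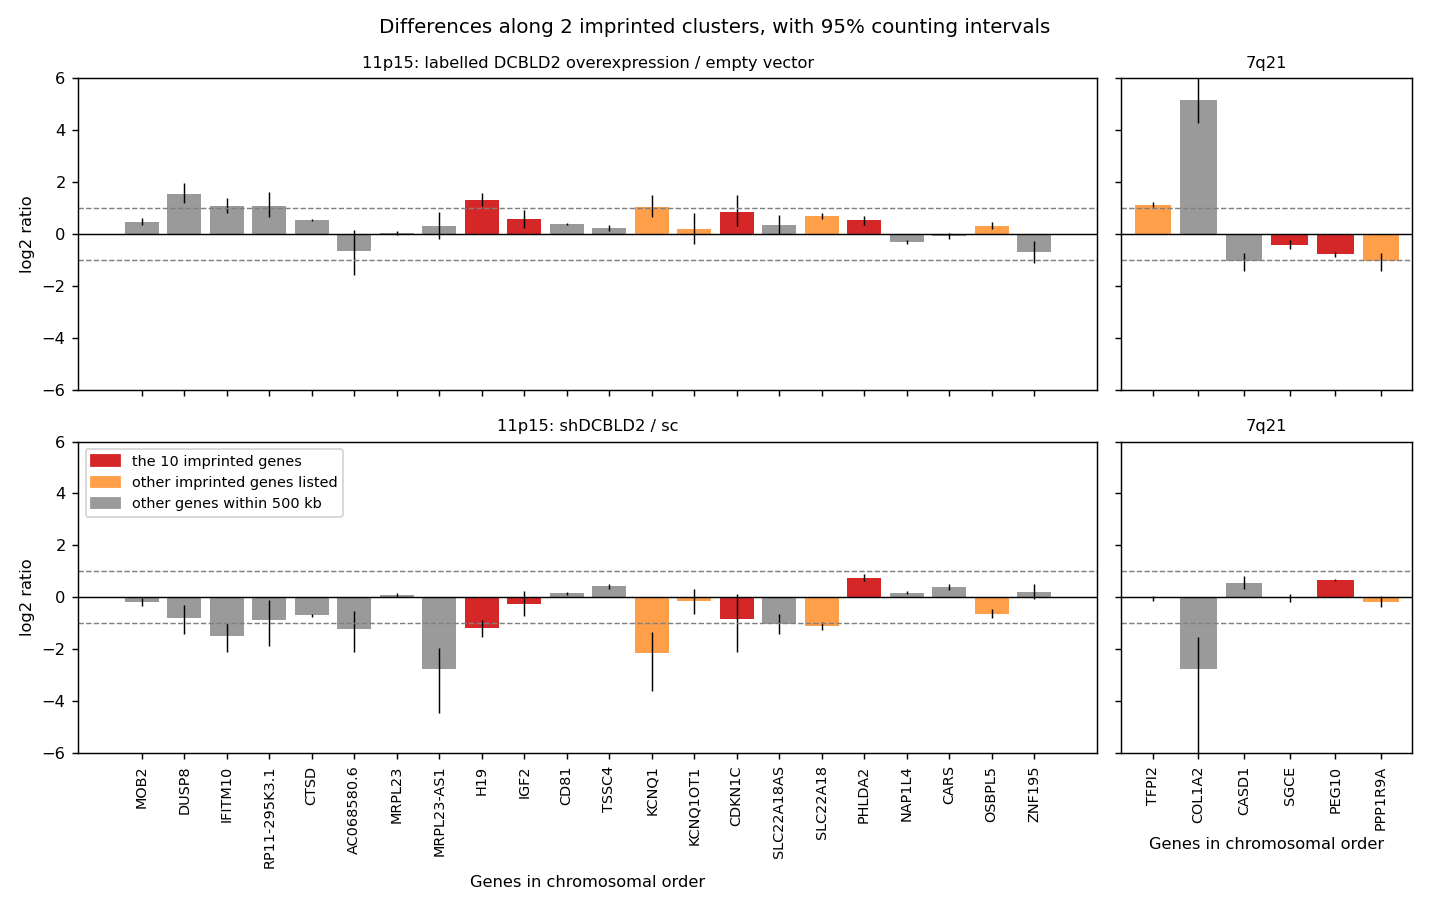
Log2 ratios (y axis) of genes past the filter in chromosomal order (x axis, not to scale) at 11p15 and 7q21, for the library labelled overexpression against the vector control and for shDCBLD2 against sc; lines are 95% counting intervals, those of COL1A2 run past the axis, and dashed lines mark 2-fold. H19 and KCNQ1 lie past 2-fold in both, PHLDA2 is above 0 in both, and PEG10 (−0.77 and 0.66) and SGCE (−0.40 and −0.02) differ in shDCBLD2.

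PEG10 (ENSG00000242265, chromosome 7 from 94285637 to 94299007) derives from a retrotransposon and is needed for placenta formation. SGCE (ENSG00000127990), which encodes ε-sarcoglycan of the dystrophin-associated complex, starts 116 bases away on the other strand, and both are paternally expressed. PEG10 had 4265 counts in sc, 7437 in shDCBLD2, 2549 in the vector control and 1341 in the library labelled overexpression. These were 218, 345, 139 and 81.2 CPM, and no 2 of the 4 counting intervals overlapped. On the log2 scale, the ratios were −0.77 (−0.87 to −0.68) against the vector control, 0.66 (0.61 to 0.72) for shDCBLD2 and −0.65 (−0.72 to −0.58) between the controls. The ratio between the control libraries was thus of the size of the other 2, and none was called. With the controls exchanged, PEG10 was called lower in the library labelled overexpression than in sc, at −1.42, and higher in shDCBLD2 than in the vector control, at 1.31. Across all 4 libraries the highest level was 4.24 times the lowest.

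SGCE had ratios nearer 0 than PEG10 in all 3 comparisons. It had 718, 779 and 762 counts in sc, shDCBLD2 and empty vector, and 518 in the library labelled overexpression. Neighbouring libraries in the order of its levels, from 31.4 to 41.5 CPM, overlapped in each case. The log2 ratios were −0.40 (−0.57 to −0.24), −0.023 (−0.17 to 0.12) and 0.18 (0.03 to 0.33). Per length, PEG10 stood at 2.28 times the SGCE level in sc, 3.67 times in shDCBLD2, 1.29 times in the vector control and 0.995 times in the library labelled overexpression.

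Around PEG10 and SGCE, PPP1R9A, an imprinted gene for an actin-binding protein, was 2.08-fold lower in the library labelled overexpression, with 108 counts against 252. TFPI2, an imprinted gene for a protease inhibitor, was 2.19-fold higher there, with 2407 counts against 1220. CASD1, 28211 bases from SGCE, was 2.07-fold lower. Against sc in place of the vector control, TFPI2 and CASD1 were not called. COL1A2, a collagen gene, had 17, 1, 0 and 67 counts in sc, shDCBLD2, the vector control and the library labelled overexpression. It passed the filter, with a mean of 1.24 CPM, only through the last of these. It was called higher there than in the vector control and lower in shDCBLD2 and in the vector control than in sc. These calls rest on few counts and ended at a mean of at least 5 CPM.

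MEST (ENSG00000106484, chromosome 7 from 130126012 to 130146133), a paternally expressed gene of mesodermal tissue that encodes a protein of the hydrolase fold, hosts miR-335. Its promoter and that of SNRPN are shown because methylated copies of the hexamer TGCCGC are bound by ZFP57, a zinc finger protein that keeps imprints. The hexamer was searched on both strands, as TGCCGC and GCGGCA, and is in capitals. Both windows are the 250 bases before a RefSeq start on the plus strand of GRCh38.p14, at chr7:130486097-130486346 and chr15:24954737-24954986. Of the windows of each gene, the one with most CpG was taken, and of the 2 MEST windows with 20 CpG the one with the hexamer.
MEST promoter: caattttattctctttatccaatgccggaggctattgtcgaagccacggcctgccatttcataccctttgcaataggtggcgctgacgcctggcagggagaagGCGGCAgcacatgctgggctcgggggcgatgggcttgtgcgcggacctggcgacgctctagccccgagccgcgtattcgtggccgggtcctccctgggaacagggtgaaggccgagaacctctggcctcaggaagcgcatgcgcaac
SNRPN promoter: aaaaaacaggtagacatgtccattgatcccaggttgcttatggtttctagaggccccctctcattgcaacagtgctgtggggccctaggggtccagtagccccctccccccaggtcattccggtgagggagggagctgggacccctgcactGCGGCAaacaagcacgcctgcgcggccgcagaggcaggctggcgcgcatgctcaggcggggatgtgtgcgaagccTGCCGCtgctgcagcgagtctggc
hsa-miR-335-5p: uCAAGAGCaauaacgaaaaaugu
hsa-miR-335-3p: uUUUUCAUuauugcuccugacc
In the miRNA the capitals mark the seed. The MEST window holds 20 CpG and 1 hexamer and the SNRPN window 12 CpG and 2 hexamers. The MEST window was picked for its hexamer, so its match was fixed by the choice. The other 4 MEST windows hold 0, among them those further along the plus strand, from 130491079 to 130492084. Which of the MEST starts is imprinted was not read here, so the printed window need not be the imprinted promoter. Of the other 3 SNRPN windows 1 holds 1. Over all 35116 windows 12.7% hold the hexamer, a share that does not apply to windows picked for CpG or hexamers. The table of promoters matched 4 of the 10 genes, H19, MEST, SNRPN and GRB10. The H19 window holds 0, as does the GRB10 window with most CpG, 40, while 1 of the other 4 GRB10 windows holds 1. A match describes the letters only.

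MEST had 431 counts in sc, 665 in shDCBLD2, 532 in the vector control and 294 in the library labelled overexpression. The shDCBLD2 and empty vector libraries overlapped at 30.8 and 28.98 CPM, sc lay below them at 22.03 and the remaining library lowest at 17.8. Ratios on the log2 scale came to −0.70 (−0.91 to −0.49), 0.48 (0.31 to 0.66) and 0.39 (0.21 to 0.58), none past 2-fold. COPG2, which overlaps MEST on the other strand, had ratios of −0.65, −0.05 and 0.29. MIR335, whose entry lies inside MEST, had 0 counts in all libraries. CEP41, the nearest gene past the filter that does not overlap MEST, was called in none of the 3 comparisons. CPA4, an imprinted carboxypeptidase gene of the same cluster, was 2.39-fold higher in shDCBLD2, with 90 counts against 33 in sc. Its call ended at a mean of at least 5 CPM.

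GRB10 (ENSG00000106070, chromosome 7 from 50657760 to 50861159) encodes an adaptor that binds and restrains insulin and IGF1 receptors, and its parental expression depends on the tissue. It had 1144 counts in sc, 1784 in shDCBLD2, 1073 in the vector control and 1033 in the library labelled overexpression. The shDCBLD2 library stood apart at 82.7 CPM, and the other 3 overlapped between 58.5 and 62.6. On the log2 scale, the ratios were 0.10 (−0.03 to 0.22), 0.50 (0.39 to 0.61) and −0.00060 (−0.12 to 0.12). Genes on both sides of GRB10 were called where it was not. COBL, an actin nucleator, had 254, 57, 97 and 446 counts in sc, shDCBLD2, the vector control and the library labelled overexpression. DDC, the decarboxylase of dopamine and serotonin synthesis, had 66, 1, 1 and 13. COBL was 5.03-fold higher in the library labelled overexpression than in the vector control, 4.77-fold lower in shDCBLD2 than in sc, and 2.43-fold lower in the vector control than in sc. DDC was called in the same 3 directions, but passed the filter, with a mean of 1.07 CPM, only through sc, and its calls ended at a mean of at least 5 CPM. With the controls exchanged, DDC turned to called lower in the library labelled overexpression, and neither DDC nor COBL was called in shDCBLD2. FIGNL1, also within 500 kb, was 2.04-fold lower in the library labelled overexpression.

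SNRPN (ENSG00000128739, chromosome 15 from 25068794 to 25223870), a paternally expressed gene for a protein of small nuclear ribonucleoproteins, had the narrowest range of the 9 when counted alone. It had 89, 87, 81 and 64 counts in sc, shDCBLD2, the vector control and the library labelled overexpression, and all neighbouring intervals overlapped. The log2 ratios were −0.18 (−0.68 to 0.30), −0.17 (−0.62 to 0.27) and −0.04 (−0.50 to 0.41), so differences within these bounds were not detectable at this depth. SNHG14, the long RNA that starts inside SNRPN on the same strand, was 2.19-fold lower in the library labelled overexpression, with 168 counts against 411. Reads in the shared stretch could be counted to either. Summed with the genes that overlap it on the same strand, SNRPN had log2 ratios of −0.91, 0.07 and −0.46 in the 3 comparisons in place of −0.18, −0.17 and −0.04, still under 2-fold. SNURF, which shares its first exons, had 6 to 16 counts per library. UBE3A, the ubiquitin ligase gene at the far end of the cluster, had log2 ratios of −0.66, 0.32 and −0.11. MKRN3 and ATP10A of the same region were called in none of the 3 comparisons.

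PEG3 (ENSG00000198300, chromosome 19 from 57321445 to 57352096), a paternally expressed zinc finger gene, had 1 count in sc and 0 in the other 3 libraries. Its partner ZIM2, which overlaps it, and MIMT1 had 0 counts in all 4. No fold can be given. The zinc finger genes next to it were read, with 451 to 554 counts for ZNF71 and 76 to 107 for ZNF264, and neither was called. ZNF460, within 500 kb, was 2.39-fold lower in the vector control than in sc, a call that ended at a mean of at least 5 CPM.

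A wider list of 48 imprinted genes, apart from the 10, was read for comparison; 44 were found and 25 passed the filter. Against the vector control 3 were called higher and 3 lower, in shDCBLD2 3 higher and 2 lower, and between the controls 0 in either direction. Over all genes, as above, 6.39% were called higher and 5.29% lower, then 1.17% and 5.65%, then 2.21% and 1.89%, and the same shares stand beside the lists that follow. The median log2 ratios of the 25 were 0.20, −0.044 and −0.11. Besides those described above, L3MBTL1, a chromatin reader, was 2.16-fold higher and RB1, the retinoblastoma gene, 2.24-fold lower in the library labelled overexpression. Of these 2, against sc RB1 kept its call and L3MBTL1 did not. The call of L3MBTL1 also ended at a mean of at least 5 CPM. MEG3, a maternally expressed noncoding RNA, was 2.38-fold higher in shDCBLD2, with 371 counts against 140 in sc. NAP1L5, a histone chaperone gene, was 2.09-fold higher there, with 60 counts against 25. Neither was called against the vector control. NAP1L5 was not called with a prior count of 5 or at a mean of at least 5 CPM. IGF2R, the clearance receptor of IGF2, was not called, with ratios of 0.65, −0.32 and −0.56.

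**Figure D4:**
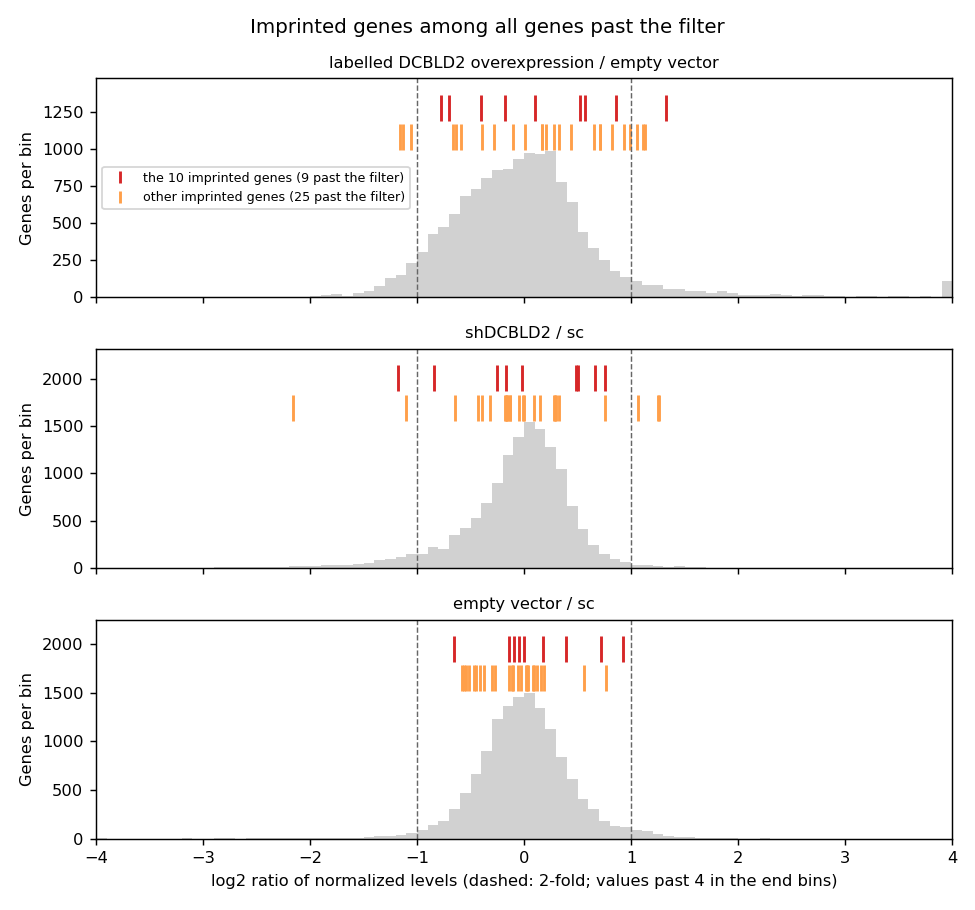
Number of genes (y axis) per 0.1-wide bin of log2 ratio (x axis) among 13966 genes past the filter in 3 comparisons, with ticks for the imprinted genes and dashed lines at 2-fold. H19 is the tick of the upper row past 2-fold, at 1.32 in the top panel and −1.18 in the middle one, and no imprinted gene lies past 2-fold in the bottom panel.

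Genes that keep imprints were next read: 13 of 17 passed the filter. TRIM28, the corepressor recruited by ZFP57, was the most abundant of them, between 971 and 1205 CPM. SMCHD1, a chromatin protein that silences imprinted clusters, was 2.29-fold lower in the library labelled overexpression than in the vector control, with 126 counts against 324. TET2, which oxidizes methylcytosine, was 2.31-fold lower in the vector control than in sc, with 51 counts against 128. That call ended at a mean of at least 5 CPM. No other gene of this list was called in any of the 3 comparisons, and ZFP57, DNMT3L, DPPA3 and CTCFL had at most 1 count. With the controls exchanged, TET2 was called lower in the library labelled overexpression and higher in shDCBLD2. Of the 13, 6 had ratios above 0 against the vector control, 9 in shDCBLD2 and 1 between the controls. The median log2 ratio between the controls was −0.40, against −0.0068 for all genes.

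Partners and relatives of the 10 genes numbered 26, of which 25 passed the filter. SNRPB, the near relative of SNRPN in the spliceosome, was the most abundant, between 712 and 840 CPM. SGCA, α-sarcoglycan, was 4.76-fold higher in the library labelled overexpression, with 67 counts against 14, a call that ended at a mean of at least 5 CPM. PHLDA1, of the PHLDA2 family, and GRB14, of the GRB10 family, were 2.64-fold and 2.04-fold lower there; against sc GRB14 was not called. GRB7, of the same adaptor family, was 3.30-fold lower in shDCBLD2, with 126 counts against 381. No partner was called between the controls.

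Marker lists were read beside these differences. The 15 A549 and lung epithelial markers summed to 33760 CPM in sc, 23354 in shDCBLD2, 29863 in the vector control and 31124 in the library labelled overexpression. In shDCBLD2, where H19 was lower, 4 of the 12 past the filter were called lower, AKR1C1, CDH1, EPCAM and KRT19, beside 5.65% of all genes. CDH1 encodes E-cadherin. Its value here is RNA, while the paper's blots measured protein and are reported to show a weaker loss of epithelial markers with shDCBLD2. In the library labelled overexpression, where H19 was higher, EPCAM and KRT19 were called higher, beside 6.39% of all genes. Of the 12, 1 had a ratio above 0 in shDCBLD2, 6 in the library labelled overexpression and 4 between the controls. Their median log2 ratios were −0.84, 0.25 and −0.24, against 0.0081, −0.044 and −0.0068 for all genes. With the controls exchanged EPCAM lost both calls and AKR1C1 its call. The lentivirus was made in a packaging line, so 18 HEK293-like markers were read. They summed to 954, 869, 1039 and 1035 CPM in the same order, of which UCHL1 made up 718 to 883, and SYT4, BEX1 and ELAVL4 had 0 counts in all 4 libraries. Of the 12 past the filter, LIN28B, NEFL and NEFM were called higher and INA lower in the library labelled overexpression. The log2 ratios of the 12 against the vector control ran from −1.12 to 6.88, with a median of 0.13. The sums, led by UCHL1, do not show this range. In shDCBLD2, NEFL was called higher, though not against the vector control, and PAX2 lower, and PAX2 was called higher in the vector control than in sc. The 10 fibroblast-like markers summed to 38.2, 59.4, 45.5 and 82.3 CPM, led by COL1A1, with FAP at 0 in all 4 libraries. Of the 4 past the filter, COL1A2 and COL3A1 were called higher in the library labelled overexpression and COL1A2 lower in shDCBLD2. In the vector control, THY1 was called higher and COL1A2 lower than in sc. At a mean of at least 5 CPM, the calls of both collagen genes ended, as did those of EPCAM, LIN28B, NEFM and PAX2. The filter takes the mean over all 4 libraries, so a gene low elsewhere can pass it through the library where it is high, as COL1A2 did. For such a gene the call follows in part from the filter. The 9 blood-like markers read summed to 8.13, 4.27, 15.5 and 21.9 CPM, led by CD14, which was called lower in shDCBLD2, with PTPRC at 0 in all 4. With the controls exchanged, the library labelled overexpression gained calls of PAX2, PCSK1N, THY1 and CD14, higher, and of CRMP1, lower. THY1 was then called lower in shDCBLD2. The part of the marker lists in the difference of H19 was not tested. In such bulk libraries, a different share of cells and a different amount of RNA per cell cannot be told apart.

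The ratio between the control libraries also moved with gene length. Its median was 0.19 in the shortest of 4 equal groups of genes past the filter, which holds H19, CDKN1C, PHLDA2 and SGCE, and −0.20 in the longest, which holds IGF2 and GRB10. In the library labelled overexpression against the vector control, the medians of these groups were −0.018 and −0.13. Between the controls, group 3 from the shortest, which holds PEG10, had a median of −0.054. The control ratios were −0.65 for PEG10, 0.92 for CDKN1C and 0.72 for IGF2, the last of opposite sign to the median of its group. The part of length in the control differences of CDKN1C, IGF2 and PEG10 was not tested.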

How the data were processed

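Poly(A) RNA of 4 A549 libraries was sequenced. The authors deposited raw counts per gene, not normalized, and FPKM values, which are these counts per kilobase of exon, scaled to the library total. The aligner, counting program, strand setting and annotation are not given in the sources used here. The submitters' processing notes name mm9, a mouse build, although the gene identifiers are human; 0 of the 10 genes lay at their GENCODE 29 position on GRCh38, so deposited coordinates were used within the table only.

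Counts were scaled with TMM factors (edgeR 4.0.16, R 4.3.3), with DESeq2 1.42.0 size factors as an alternative. Log2 ratios used a prior count of 2 and 95% intervals by the exact Clopper-Pearson method, from each library's part of the 2 counts (Python 3.11.15, scipy 1.17.1). Ratios against 0 counts used a floor of 3. FPKM served only to compare genes. Genes beside a member lay within 500 kb.

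Named genes were the 10 genes, imprinted genes of the same clusters or with the 3 highest and 3 lowest ratios, called or most abundant genes of the other lists, markers at 0, and nearest or called neighbours. Of the 48 imprinted genes listed, 4 were absent, and 4 genes of the lists were found under an older symbol or by identifier. The 10 genes and all lists were chosen with earlier results of these data known. Promoters and miRNAs came from RefSeq (GRCh38.p14). 1 marker of the planned marker lists is not reported here.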

Additional observations from a re-analysis of the deposited data

How the results depend on the processing

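H19 was the called gene of the 10 in both DCBLD2 comparisons under both other scalings, both other prior counts, no filter, a mean of at least 5 CPM and summed overlapping genes. With the other control library, the library labelled overexpression against sc had 4 of the 10 genes called (3 higher, H19, IGF2 and CDKN1C, and 1 lower, PEG10), beside 1125 higher and 1252 lower of all 13966 genes in place of 893 and 739, and shDCBLD2 against the vector control had 3 (PEG10 higher, H19 and CDKN1C lower). PEG10 then had log2 ratios of −1.42 and 1.31, IGF2 of 1.29 and −0.97, and DCBLD2 of −1.06 and −1.14. By construction, the log2 ratio between the controls is added in the library labelled overexpression and subtracted in shDCBLD2. In shDCBLD2 that control gave 3 of 25 other imprinted genes in place of 5, 4 of the 35 genes beside the 10 in place of 7, and 10.3% of all genes in place of 6.82%.

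At 1.5-fold, 4 of the 10 genes were called against the vector control (H19 and CDKN1C higher, MEST and PEG10 lower), 3 in shDCBLD2 and 3 between the controls. Other imprinted genes then gave 15, 7 and 1 calls in the 3 comparisons in place of 6, 5 and 0, genes beside the 10 gave 14, 12 and 7 in place of 8, 7 and 4, and all genes 30.6%, 16.5% and 13.7% in place of 11.7%, 6.82% and 4.10%. With no filter, 4.96%, 2.93% and 1.93% of all genes were called, and 1 other imprinted gene between the controls. With a mean of at least 5 CPM these were 7.67%, 3.68% and 1.66%, with 2 other imprinted genes in shDCBLD2 and 5, 3 and 1 genes beside the 10; fewer genes enter by construction. The split of all genes against the vector control was 893 higher and 739 lower, 339 and 492 at 5 CPM, and 1788 and 2481 at 1.5-fold. With no filter it was 1869 higher and 1002 lower. DCBLD2 between the controls was −0.28 with library totals in place of −0.21.

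Of the log2 ratios of the 9 genes, 2 changed sign with DESeq2 factors, GRB10 between the controls and SGCE in shDCBLD2, both near 0, and SNRPN in shDCBLD2 changed sign when summed with overlapping genes (0.07). No called value of the 10 genes reversed. DDC, called higher against the vector control, was called lower against sc. Among imprinted genes and genes beside the 10, the other control library ended calls of L3MBTL1, TFPI2 and CASD1 in the library labelled overexpression. In shDCBLD2 it ended those of MEG3, NAP1L5, AC068580.6, COBL, COL1A2, DDC and SLC22A18AS. Genes beside the 10 also gained calls, ZFP28 lower in the library labelled overexpression and DUSP8 and RP11-295K3.1 lower in shDCBLD2. SLC22A18AS lost its call with DESeq2 factors, it and NAP1L5 with a prior count of 5, and PLAGL1 gained one with both other scalings and a prior count of 0.5. In the other lists, rerun after the data were seen, the other control ended calls of GRB14 and EPCAM in the library labelled overexpression. In shDCBLD2 it ended those of AKR1C1, EPCAM, NEFL and COL1A2. It added calls of TET2, FAM127C, PAX2, PCSK1N, CRMP1, THY1 and CD14 in the former and of TET2 and THY1 in the latter. Other scalings moved the median of all genes by at most 0.062 in size. No paired analysis was possible because each condition has 1 library, and leaving out a replicate could not be done. Depth limits CDKN1C, with 12 to 65 counts, SNRPN and PEG3 most.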

Other observations

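Some imprinted genes outside the rule for named genes were picked after their values were seen. GNAS, which encodes the stimulatory G protein subunit, was the most abundant of the 44 other imprinted genes in every library, with 728 CPM in sc, 665 in shDCBLD2, 776 in the vector control and 873 in the library labelled overexpression. GNAS-AS1, its antisense RNA, had 14 counts in the library labelled overexpression and 0 in the other 3, at least 5.19-fold more than in the vector control against a floor of 3 counts per library, and did not pass the filter. PLAGL1, a paternally expressed zinc finger gene, had 160, 175 and 147 counts in sc, shDCBLD2 and empty vector and 265 in the library labelled overexpression. Its log2 ratio of 0.99 (0.71 to 1.30) against the vector control fell just short of 2-fold; with DESeq2 factors, library totals or a prior count of 0.5 it was called higher. DLK1, the paternally expressed partner of MEG3, had 8 counts in shDCBLD2, where MEG3 was called higher, and at most 1 in the other 3 libraries.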
